A study of Mus musculus with 2 samples.

Results

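Natural killer (NK) cells of bone marrow were compared with NK cells of spleen in mice fed ad libitum, by droplet-based single-cell RNA sequencing that counts unique molecular identifiers (UMIs). The members were the cells that the deposited hashtag classification assigned to a single population, 575 of bone marrow and 1804 of spleen. Together they were 2379 of the 13118 cells in the matrix, and of the 7479 cells that were not called doublets or left unclassified. The mice were C57BL/6, 12 weeks old, and had been injected under the skin with MC38, a colon carcinoma line of mouse origin. Cells were sorted as Lineage-, NK1.1+ and CD49b+ after red cell lysis, from marrow that was flushed out and from spleen that was passed through a strainer. Tissue and preparation therefore cannot be told apart. Further populations in the same lane came from the same tissues of mice on a cyclic fasting diet, named fasted and refed in the tag list, and from the spleen of mice that the tag list calls naive. They served to repeat the comparison. The labels do not say how many mice gave each population or what naive stands for. Each population was 1 sample, so differences have no replicate check and no p-value.

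NK cells develop in bone marrow from lymphoid precursors. Immature NK cells there divide, and carry CD27 and the interleukin 7 receptor. As they mature they stop dividing, gain CD11b (Itgam), KLRG1, cytotoxic granules and the chemokine receptor CX3CR1, and leave through the sphingosine-1-phosphate receptor S1PR5, while CXCR4 holds cells in marrow. The spleen is known to hold mostly mature NK cells.

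The populations were told apart by the barcode of a hashtag antibody put on the cells of each tissue before pooling, shown here in capitals because every base is read.
Bone marrow ad libitum, hashtag B0306: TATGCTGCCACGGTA
Spleen ad libitum, hashtag B0309: TGCCTATGAAACAAG

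Bone marrow cells held more RNA. They summed to 5291444 UMIs with a median of 7137 per cell, against 8855566 and 4209.5 in spleen. Median genes per cell were 2121 and 1608, but 757 and 780 once every cell was thinned to 1500 UMIs (22 marrow and 116 spleen cells were shallower and left out). Mitochondrial genes took 4.12% of UMIs in marrow and 2.94% in spleen, and ribosomal protein genes 28.0% and 23.0%. Levels are given as CPM, a gene's UMIs scaled to the same total in each population, and differences are log2 ratios of CPM + 5, marrow over spleen. Bounds given after a log2 ratio are those of a 95% interval for counting error alone. UMIs come from single cells of unequal depth, so the deep cells weigh most in these sums. Fewer cells that express a gene and less RNA of it per cell cannot be told apart in a sum.

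The sort was checked against fixed markers. All 575 marrow cells and 1803 of 1804 spleen cells had UMIs of at least 3 of 14 NK markers. The 26 marrow cells with myeloid markers given below passed too, so this count cannot tell NK cells from other cells. The NK markers summed to 17800 CPM in marrow and 35310 CPM in spleen, and all 14 were lower in marrow. Marrow also held UMIs of myeloid cells. The 10 neutrophil markers summed to 2560 CPM in marrow against 35.2 CPM in spleen, and the 10 monocyte or macrophage markers to 1198 CPM against 41.3 CPM. Cells with at least 3 markers of either class numbered 26 in marrow (4.52% of cells, 7.81% of UMIs) and 17 in spleen (0.942% of cells). UMIs of Ncr1, the NK receptor NKp46, were in 14 of these 26 marrow cells and in 14 of the 17 spleen cells. Among all cells they were in 529 of 575 in marrow and 1743 of 1804 in spleen. Markers of B cells summed to 5.48 CPM in marrow and 3.39 CPM in spleen, with Ms4a1 and Pax5 at 0 in both. The 12 T cell markers summed to 685 CPM in marrow and 484 CPM in spleen, and 7 of them were higher in marrow. Cells with UMIs of at least 3 of these numbered 145 in marrow and 104 in spleen, and held 60.8% and 26.0% of the UMIs of these markers. The CD3 chains among these markers are known to be transcribed by immature NK cells too. Cd4 and Cd8a were at 0 in marrow, and at 0 and 0.113 CPM in spleen. Trac was higher in marrow, at 22.3 and 13.4 CPM, as were Cd5 at 1.89 and 0.452 CPM and Cd6 at 1.13 and 0.226 CPM. The part of T cells in these UMIs was not tested.

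Genes of mature NK cells were lower in marrow, and genes of dividing cells were higher. Of 7128 genes with a mean level of at least 10 CPM, 295 were at least 2-fold higher in marrow (4.14%) and 85 at least 2-fold lower (1.19%). The median log2 ratio of all genes compared was -0.06, and 3086 of the 7128 were higher in marrow by any amount. The shares of 4.14% and 1.19% are the reference for the counts of each list below. Differences of at least 4-fold were more often upward, with 52 genes higher and 6 lower. Among the 295 higher genes, 31 had at least 10% of their UMIs in 1 cell, as had 3 of the 85 lower genes. Lyz2, a myeloid lysozyme, stood at 1132 CPM against 9.37 CPM, and 97.6% of its marrow UMIs lay in the 26 cells with myeloid markers. S100a9, a neutrophil calcium-binding protein, stood at 1065 CPM against 14.8 CPM, with 98.5% of its marrow UMIs in 1 cell. Genes of that kind were left out when the 20 highest and 20 lowest genes were ranked.

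**Figure D1:**
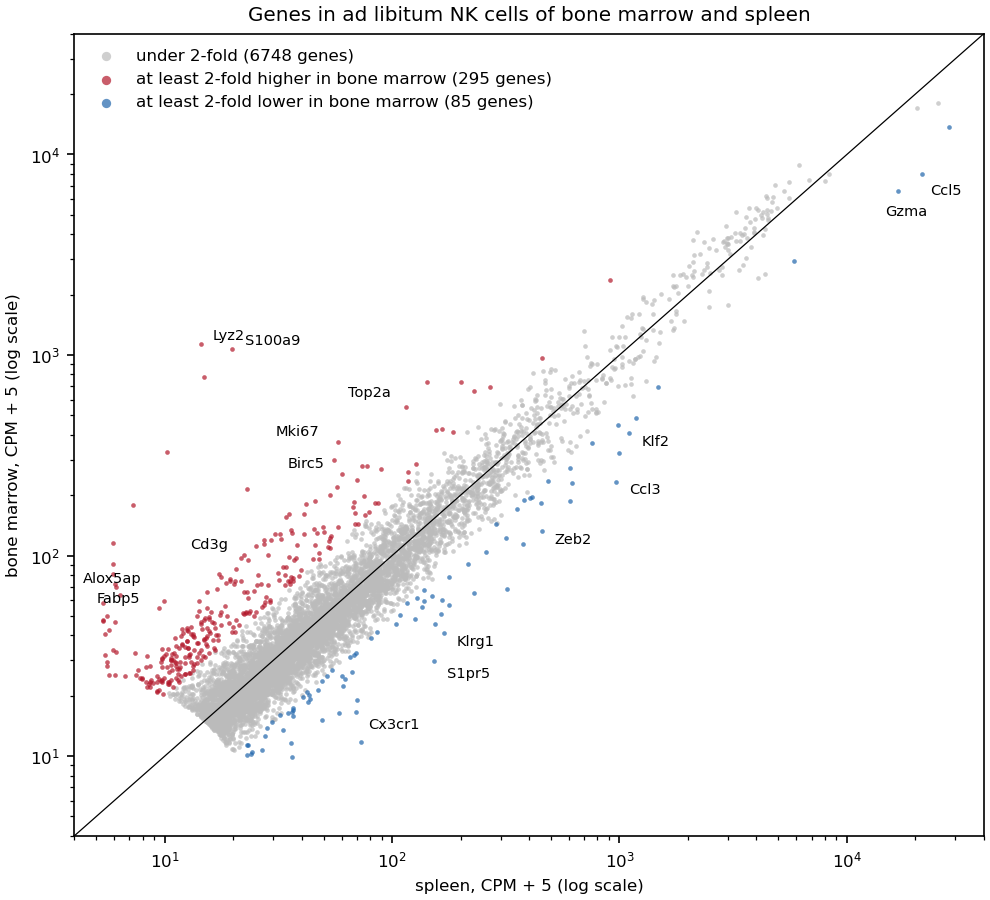
Level of each of the 7128 genes compared, as CPM + 5 in spleen (x axis) and bone marrow (y axis), both on log scales. The line marks equal levels; the red points are the 295 genes at least 2-fold higher in marrow and the blue points the 85 at least 2-fold lower, with S1pr5, Klrg1 and Cx3cr1 far below the line and Mki67, Top2a and Lyz2 far above it.

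The mature NK list held 20 genes of late, circulating NK cells. None was higher in marrow, and 12 of 20 were at least 2-fold lower, beside 1.19% of all genes. Their median log2 ratio was -1.16. S1pr5, the egress receptor (minus strand of chr9:21242912-21248443 in mm10), stood at 24.8 CPM in marrow and 148 CPM in spleen, a log2 ratio of -2.36 (-2.59 to -2.14). In the other populations it stood at 20.4 and 17.0 CPM in fasted and refed marrow, and at 133, 127 and 158 CPM in fasted, refed and naive spleen. The share of all genes whose 3 marrow values lie apart from all 4 spleen values was not counted, so such levels are a description. Klrg1, an inhibitory lectin receptor of terminal NK cells, was lower too, with 36.1 CPM in marrow and 165 CPM in spleen (-2.05, -2.24 to -1.85). Its levels were 9.51 and 15.3 CPM in fasted and refed marrow against 109 to 165 CPM over the 4 spleen populations. Cx3cr1, the fractalkine receptor, stood at 11.5 and 64.4 CPM (-2.07, -2.35 to -1.78), although naive spleen had 37.3 CPM. Itgam, which encodes CD11b, stood at 45.9 and 160 CPM (-1.70). Kcnj8, a potassium channel subunit, had the lowest ratio of all ranked genes, with 6.80 CPM in marrow and 68.3 CPM in spleen (-2.63, -2.93 to -2.33). Cma1, a mast cell chymase gene that led the spleen-rich clusters here, stood at 62.9 and 316 CPM (-2.24). Ly6c2, a surface protein of mature NK cells that monocytes also make, stood at 346 and 637 CPM (-0.87). Its ratio was -2.17 without cells carrying myeloid or T cell markers and -2.75 without cells with markers of other types. Levels of these genes were spread over many cells. After thinning to 1500 UMIs per cell, the median cell held 5 UMIs of the mature NK list in marrow and 13 in spleen, and the middle of the cells ranged from 3 to 9 and from 8 to 18 (25th to 75th percentile).

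Regulators of maturation were lower, while Eomes was nearly level. Of 45 transcription factors compared, 6 were at least 2-fold lower (13.3%, beside 1.19% of all genes), with a median log2 ratio of -0.38. The 3 at least 2-fold higher (6.67%) were near the 4.14% of all genes. Zeb2, a zinc finger factor needed for terminal maturation, stood at 127 CPM in marrow and 453 CPM in spleen (-1.79, -1.91 to -1.68). Klf2, a Kruppel-like factor of resting lymphocytes that drives S1P receptor genes, stood at 403 and 1099 CPM (-1.44, -1.50 to -1.37), and Klf3 at 43.3 and 122 CPM (-1.39). Tbx21, which encodes T-bet, a T-box factor of late maturation, stood at 73.1 and 139 CPM (-0.88, -1.04 to -0.72). Its relative Eomes, which keeps NK identity, stood at 194 and 226 CPM (-0.21, -0.32 to -0.10). Myb, a factor of blood progenitors and dividing lymphoid cells, was higher at 35.0 against 11.7 CPM (1.25), and Ikzf2, the Helios gene, at 51.4 against 22.2 CPM (1.05). Myb was at 0.12 in the refed comparison. Tcf7, a factor of early NK cells, stood at 56.7 and 43.5 CPM (0.35, 0.15 to 0.55), but its ratio was -0.12 against naive spleen and -0.20 with equal cluster weights. Hes1, a Notch target, was among the lowest genes at 14.0 and 64.8 CPM (-1.88).

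Among 26 receptors of trafficking and adhesion, 4 were at least 2-fold lower and 0 at least 2-fold higher, and the median was -0.42. The 4 were S1pr5, Cx3cr1, Itgam and Rgs1, a regulator of chemokine signalling (117 and 311 CPM, -1.37). The other main egress receptor, S1pr1, was far closer to level than S1pr5, at 27.6 CPM in marrow and 34.7 CPM in spleen (-0.28, -0.53 to -0.03). Cxcr4, the retention receptor (minus strand of chr1:128588199-128592293), stood at 52.2 CPM in marrow and 41.3 CPM in spleen (0.30, 0.09 to 0.51). Its log2 ratio was 0.56 in fasted and 0.48 in refed mice, but -0.10 without clusters 6 and 10. Cxcr3, a receptor of interferon-induced chemokines, had the highest ratio of the list, at 82.6 and 42.0 CPM (0.90, 0.71 to 1.08).

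Effector genes were lower too. Of 22 genes of granules and death ligands, 5 were at least 2-fold lower and 0 at least 2-fold higher, with a median of -0.53. Gzma, the most abundant granzyme, stood at 6538 CPM in marrow and 16738 CPM in spleen (-1.36, -1.37 to -1.34), and Gzmb at 482 and 1174 CPM (-1.28, -1.34 to -1.21). Prf1, the pore-forming perforin, stood at 110 and 372 CPM (-1.72, -1.84 to -1.59). The median thinned cell held 19 UMIs of this list in marrow and 43 in spleen. Of 13 cytokine and chemokine genes, 4 were at least 2-fold lower (30.8%, beside 1.19% of all genes), with a median of -0.28. At least 2-fold higher was 1 (7.69%, beside 4.14% of all genes). The lower ones were Ccl3 at 228 and 963 CPM (-2.05), Ccl4 at 320 and 991 CPM (-1.61), Ccl5 at 8011 and 21365 CPM (-1.41) and Ifng, the interferon gamma gene, at 99.8 and 254 CPM (-1.31, -1.44 to -1.17). The higher one was Ccl6, a chemokine gene of myeloid cells, at 37.4 and 0.678 CPM (2.90, 2.67 to 3.04), and its ratio without cells carrying myeloid or T cell markers was 0.45. Of 34 NK receptor genes, 5 were at least 2-fold lower (14.7%, beside 1.19% of all genes), with a median of -0.59. At least 2-fold higher was 1 (2.94%), no more than the 4.14% of all genes. Ncr1 stood at 735 and 1304 CPM (-0.82) and the Ly49 genes Klra9 and Klra8 at log2 ratios of -1.42 and -1.05. Ly49 genes are near-identical copies of each other, so reads may have been split among them. Slamf6, a receptor that early NK cells carry, was the higher one at 31.6 against 8.92 CPM (1.39, 1.10 to 1.67). Of 23 cytokine receptor genes none passed 2-fold in either direction. Il2rb, the shared receptor chain for interleukins 2 and 15, stood at 320 and 373 CPM (-0.22).

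Genes of immature NK cells were higher in marrow over all cells, by less than mature genes were lower, but not within every cluster. Of 17 compared, 11 were higher, beside 3086 of 7128 of all genes, and the median was 0.35. At least 2-fold higher were 2 (11.8%), beside 4.14% of all genes. Il2ra and Flt3 were below the level required. Cd27 stood at 115 CPM in marrow and 87.0 CPM in spleen (0.38, 0.23 to 0.53), and Il7r at 20.6 and 13.4 CPM (0.47, 0.17 to 0.77). The sign of Il7r changed with the setting. Its ratio was -0.058 without cells with markers of other types, -0.30 with equal cluster weights and 0.17 against naive spleen. It was 1.18 without clusters 6 and 10 and 1.49 in thinned cells. Ltb, which encodes lymphotoxin beta, stood at 212 and 108 CPM (0.94), Thy1, the CD90 gene, at 194 and 101 CPM (0.91), and Emb, which encodes the adhesion protein embigin, at 194 and 70.0 CPM (1.40). Kit, the stem cell factor receptor, stood at 10.0 and 12.3 CPM (-0.20, -0.54 to 0.13), an interval that held 0. Without clusters 6 and 10 the list median was 0.74, more than 1.5 times the value over all cells. Against the naive instead of the ad libitum spleen it was 0.04, and with equal cluster weights -0.030. Within the deposited clusters 1, 2, 3, 5, 6, 7 and 10 it was -0.03, 0.09, 0.00, 0.25, -0.11, 0.91 and -0.58.

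Chains of the CD3 complex, which T cells use and which immature NK cells are known to transcribe, were also higher. Cd3g stood at 95.8 CPM in marrow and 17.3 CPM in spleen (2.18, 1.96 to 2.40), and the further 2 marrow populations at 136 and 148 CPM against 11.2 to 19.3 CPM over all 4 spleen populations. Cd3d stood at 125 and 31.3 CPM (1.84) and Cd3e at 30.8 and 6.89 CPM (1.59). The T cell receptor gene Trbc1 was level at 342 and 349 CPM (-0.03), and Trac stood at 22.3 and 13.4 CPM (0.57). Cells with UMIs of at least 2 of Trac, Cd5, Cd6, Cd28, Cd4, Cd8a and Cd8b1 numbered 27 in marrow and 23 in spleen, and held 25.8% of marrow Cd3g UMIs. The log2 ratio of Cd3g was 2.12 and that of Cd3d 1.83 without those cells and the cells with myeloid markers, a rule added after the data were seen. Without the 176 marrow and 127 spleen cells with at least 3 markers of any other type they were 0.78 and 0.90. The markers of that rule include Cd3d, Cd3e and Cd3g themselves.

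Of the gene lists, mitosis had the largest share of members at least 2-fold higher. Of 62 compared, 61 were higher in marrow and 58 at least 2-fold higher, with a median of 1.65. Mki67, the Ki-67 proliferation marker (minus strand of chr7:135689784-135716361), stood at 362 CPM in marrow and 52.8 CPM in spleen (2.67, 2.53 to 2.80). It stood at 155 and 284 CPM in fasted and refed marrow, against 16.8 to 52.8 CPM over the 4 spleen populations. Top2a, the topoisomerase that untangles chromosomes, stood at 543 and 110 CPM (2.25, 2.15 to 2.35). The mitotic kinase gene Cdk1 stood at 123 and 25.5 CPM (2.07), its partner Ccnb2, a cyclin, at 110 and 22.5 CPM (2.06), and Birc5, which encodes survivin, at 249 and 55.1 CPM (2.08). The kinetochore genes Cenpe and Cenpf had log2 ratios of 2.23 and 2.19. Genes of DNA replication were higher as well. All 50 compared were higher and 31 at least 2-fold, with a median of 1.10. Rrm2, a subunit of ribonucleotide reductase, stood at 114 and 22.4 CPM (2.12), Tyms, thymidylate synthase, at 90.5 and 18.3 CPM (2.04), and Tk1, thymidine kinase, at 54.4 and 9.15 CPM (2.07). Of 33 histone genes, 20 were at least 2-fold higher and 1 at least 2-fold lower, with a median of 1.32. The linker histone gene Hist1h1b stood at 732 and 137 CPM (2.37). Histone genes are near-identical copies, so their counts may be split among them. Hist1h1c, a linker histone gene that is also transcribed outside S phase, went the other way at 102 and 143 CPM (-0.47).

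The UMIs of the mitosis list were concentrated in few cells. In thinned cells, the 10% richest in the mitosis list held 48.4% of its UMIs in marrow and 42.2% in spleen. The median cell held 2 UMIs of the list in either tissue, while the 90th percentile was 28 in marrow and 5 in spleen. For the mature NK list, the richest 10% of cells held 26.4% and 19.6%, for histone genes 55.3% and 38.5%, and for replication genes 36.25% and 30.99%. Sparse lists can reach large shares too: the sterol and fatty acid list, with a mean of 0.47 UMIs per thinned marrow cell, had 45.0% and 43.5%. The mean was 7.81 in marrow and 3.03 in spleen for mitosis, and 6.50 and 13.7 for mature NK, so the lists are not alike in depth.

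Promoters of the mitosis list were read for words that cell cycle factors bind, in the 250 bases before the start of the first promoter listed for each gene by RefSeq (GRCm38.p6). The words searched on both strands were TTTGAA (the CHR element), CCAAT, TTTCCCGC or TTTGGCGC (E2F) and AGGTGTGA (T-box). CHR and CCAAT words overlapped in 34 of all 27025 promoters. Of the 62 mitosis genes 52 had a promoter in the table, and 17 of them (32.7%) held both CHR and CCAAT, against 4.22% of the 5574 compared genes with a promoter and 5.73% of all promoters. CHR, with or without CCAAT, was in 34.6% of the list and 10.6% of compared genes. CCAAT was in 39 of the 52 and in 36.7% of compared genes. Of 40 replication genes with a promoter, 15.0% held an E2F word, against 3.12% of compared genes. None of 18 mature NK genes held the T-box word, which 0.682% of compared genes held. At so low a share 18 genes are too few to tell whether the list lacks it. A word is a match of letters and not a binding site. The promoters of the highly ranked mitosis genes Mki67, Ccnb2 and Top2a are shown beside that of S1pr5, with CHR and CCAAT words of either strand in capitals. Mki67 and Top2a held each of these words more than once. The window of Cenpf held CCAAT alone and that of Birc5 none of the words searched. Genes lower in marrow held the words too. Of the 15 among the 20 lowest with a promoter, 2 (13.3%) held both CHR and CCAAT, Cx3cr1 being 1 of them, and Zeb2 held CCAAT alone.
Mki67, minus strand of chr7:135716380-135716629: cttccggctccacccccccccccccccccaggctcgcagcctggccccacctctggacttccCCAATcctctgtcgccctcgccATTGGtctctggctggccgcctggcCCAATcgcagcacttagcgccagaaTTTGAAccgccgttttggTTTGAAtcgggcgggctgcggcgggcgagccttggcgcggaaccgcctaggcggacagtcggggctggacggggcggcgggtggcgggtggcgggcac
Ccnb2, minus strand of chr9:70421555-70421804: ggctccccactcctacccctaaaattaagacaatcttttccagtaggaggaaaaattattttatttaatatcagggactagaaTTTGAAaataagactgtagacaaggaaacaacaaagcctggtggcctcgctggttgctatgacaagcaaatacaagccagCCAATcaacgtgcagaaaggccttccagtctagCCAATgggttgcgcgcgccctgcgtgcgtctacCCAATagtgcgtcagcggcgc
Top2a, minus strand of chr11:99024190-99024439: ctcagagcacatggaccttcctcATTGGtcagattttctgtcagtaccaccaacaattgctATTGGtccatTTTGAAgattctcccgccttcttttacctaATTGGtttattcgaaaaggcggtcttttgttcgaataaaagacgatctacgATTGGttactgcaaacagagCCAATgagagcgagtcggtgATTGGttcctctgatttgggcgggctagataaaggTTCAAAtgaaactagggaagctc
S1pr5, minus strand of chr9:21248444-21248693: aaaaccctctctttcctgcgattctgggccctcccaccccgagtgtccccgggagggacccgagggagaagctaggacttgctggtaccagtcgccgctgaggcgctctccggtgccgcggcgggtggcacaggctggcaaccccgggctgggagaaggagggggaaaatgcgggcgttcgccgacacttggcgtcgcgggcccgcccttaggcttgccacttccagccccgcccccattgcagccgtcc
The S1pr5 window held none of the words searched.

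The 20 highest genes also held 4 that are not of the cell cycle or of CD3. Alox5ap, which supplies arachidonic acid to leukotriene synthesis, stood at 58.4 and 1.36 CPM (3.32, 3.07 to 3.50), and 95.8% of its marrow UMIs lay in the 26 cells with myeloid markers. Ifitm2, an interferon-induced membrane protein gene, stood at 54.2 and 4.97 CPM (2.57), with 83.6% there. Without all cells carrying myeloid or T cell markers their log2 ratios were 0.29 and 0.77. Ifi30, a lysosomal thiol reductase gene, stood at 80.9 and 15.6 CPM (2.06), and at 1.32 without them. Fabp5, a fatty acid binding protein gene, stood at 50.1 and 4.40 CPM (2.55), with 37.0% in the 26 myeloid-marked cells, and at 2.16 without marked cells. Mki67 had 7.83% of its UMIs in the 26 cells, and its ratio without marked cells was 2.69.

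The deposited clusters were filled unequally by the tissues. They rest on these same counts, so their sizes are a description. Cluster 2, led by Cd3d, Cd3g, Ltb and Cd27, held 189 marrow cells (32.9%) and 163 spleen cells (9.04%). Cluster 10 held 108 marrow cells (18.8%) and 20 spleen cells (1.11%). Its leading genes over the whole series were the myeloid genes S100a9, S100a8 and Camp. However, 98.7% of the marrow UMIs of Camp lay in 1 cell, and 19 of the 108 marrow cells had myeloid markers. Cluster 6, led by Mki67, Cenpf and Top2a, held 98 (17.0%) and 74 (4.10%). Clusters 3, 4 and 5, led by Ccl5, Klrg1, Kcnj8 and Cma1, held 39, 10 and 25 marrow cells against 362, 390 and 330 spleen cells. Cluster 10 had a median of 19137.5 UMIs per marrow cell and 14539 per spleen cell, so its 108 marrow cells held 41.4% of all marrow UMIs, against 3.40% in spleen. They held 73.4% of the marrow UMIs of the mitosis list, 65.7% of those of the replication list and 78.4% of those of histone genes. In spleen the 20 cells of cluster 10 held 19.97%, 9.51% and 12.3%. Within cluster 10 the mitosis list summed to 13680 CPM in marrow and 14150 CPM in spleen, above every other cluster of either tissue. Deep cells of a single hashtag may hold more than 1 cell, and the part of such doublets was not tested. Without the 10% of cells with most UMIs in each population, 206 genes were at least 2-fold higher and 61 at least 2-fold lower.

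**Figure D2:**
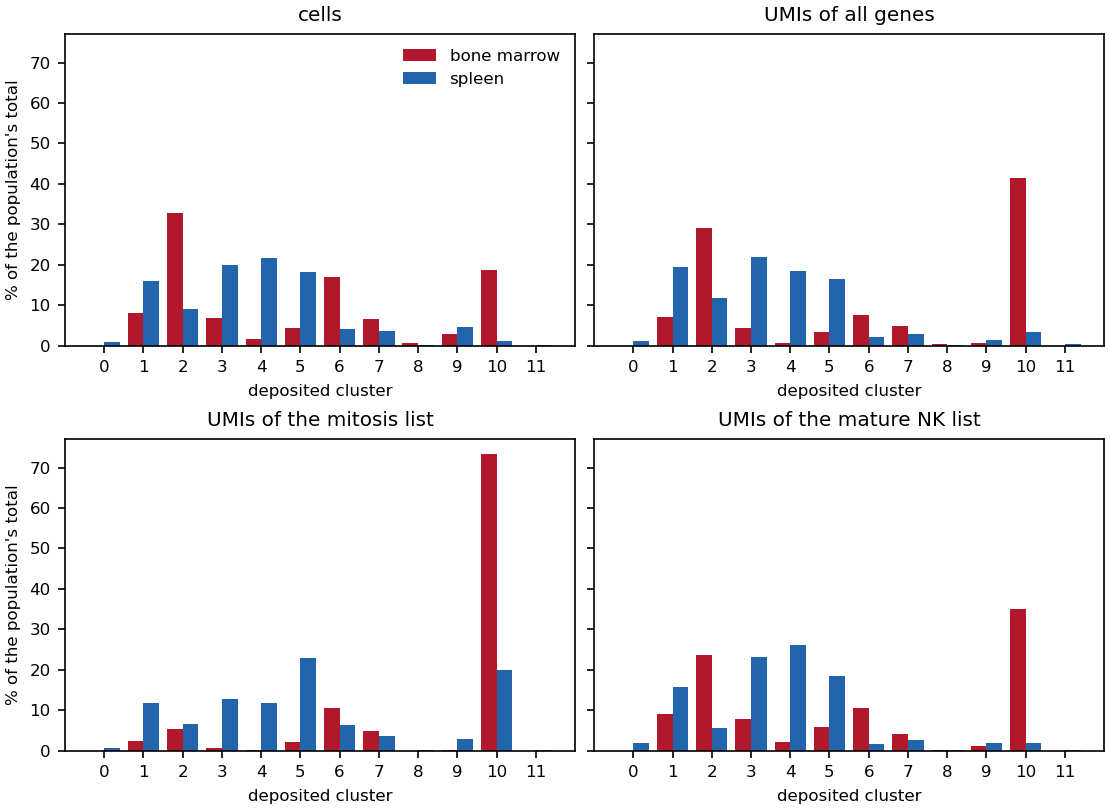
Share of each deposited cluster in a population's cells, in its UMIs of all genes, of the mitosis list and of the mature NK list, as a percentage of the total of bone marrow (red) or spleen (blue). Cluster 10 holds 18.8% of marrow cells but 73.4% of the marrow UMIs of the mitosis list, while UMIs of the mature NK list are spread over clusters in both tissues.

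The comparison was repeated with clusters left out, which is a description, because the clusters rest on these same counts. Clusters 6 and 10 held 10.7% and 73.4% of the marrow UMIs of the mitosis list. For the mature NK list they held 10.5% and 35.0%. A fall of the mitosis, replication and histone medians without them was therefore largely set by which clusters were dropped. Without clusters 6 and 10, 35 genes were at least 2-fold higher and 50 at least 2-fold lower. Of the 295 higher genes 19 were still at least 2-fold higher, and of the 85 lower genes 44 were still at least 2-fold lower. The median of the mitosis list was then 0.43, of the replication list 0.28 and of the histone genes -0.03, while that of the mature NK list was -1.15. Without cluster 10 alone, 62 genes were higher and 46 lower. Mki67 had a log2 ratio of 1.33 and Top2a of 0.98 without clusters 6 and 10. With every compared cluster weighted alike in both tissues, 30 genes were at least 2-fold higher and 18 lower, and the medians of the mitosis and mature NK lists were 0.39 and -0.56.

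Cells of the same cluster were then compared between tissues, among genes with a mean of at least 50 CPM in that cluster. Of 12 clusters, 7 had at least 20 cells of each tissue; cluster 10 with 20 spleen cells was just inside this limit, and cluster 9 with 17 marrow cells just outside. In clusters 1, 2 and 3 few genes differed by 2-fold. Cluster 1 had 6 genes higher (0.229%) and 13 lower (0.496%), cluster 2 had 4 higher (0.173%) and 3 lower (0.13%), and cluster 3 had 7 higher (0.285%) and 22 lower (0.895%). Cluster 5 had 29 higher (1.08%) and 43 lower (1.6%), cluster 6 had 76 (2.53%) and 74 (2.46%), cluster 7 had 176 (6.13%) and 130 (4.52%), and cluster 10 had 56 (2.11%) and 46 (1.74%). Marrow UMIs in clusters 1, 2, 3, 5, 6, 7 and 10 were 382088, 1534318, 235017, 184759, 405918, 260265 and 2191964, and spleen UMIs were 1715278, 1051089, 1934835, 1469789, 187096, 257028 and 301421. The part of counting error in the number of genes past 2-fold was not tested. Cluster 7 was led by antigen presentation genes such as H2-Ab1 and Cd74 and by the macrophage gene Apoe.

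The median of the mature NK list was below 0 in each of the 7 clusters compared. Its medians were -0.47, -0.41, -0.33, -0.62, -0.43, -1.43 and -0.75 in clusters 1, 2, 3, 5, 6, 7 and 10. At least 2-fold lower were 3 of 16, 1 of 12, 3 of 17, 7 of 17, 6 of 17, 10 of 16 and 6 of 14 members in that order. The 1 member that was at least 2-fold higher was Ly6c2 in cluster 10 (1.70). The 20 lowest and 20 highest genes were ranked over the same cells, so their signs within clusters are a description. Of the 20 lowest, 17 to 20 were below 0 in each cluster. Of the 20 highest, 16, 11, 4, 16, 19, 20 and 17 were above 0 in the same order of clusters. Genes were also ranked within each cluster, among those with a mean of at least 100 CPM there and under 10% of their UMIs in 1 cell. In cluster 2 the lowest of these were Zeb2 (-1.50, -1.84 to -1.16), Klf2 (-0.87) and Prf1 (-0.66), and the highest were Cd3g (1.49, 1.14 to 1.84), Cd3d (1.16) and the stress-induced factor Fosb (0.94). In cluster 1, Ly6c2 (-1.53), Ccl3 (-1.44) and Ccl4 (-1.23) were lowest in this ranking and Cd27 (0.74, 0.32 to 1.15) was among the highest. Lower still were 2 genes outside it, the granzyme gene Gzmc (-2.03, -2.58 to -1.51) and Hes1 (-1.95, -2.89 to -1.04). In cluster 3, Mir142hg, the host gene of a leukocyte microRNA, stood at -1.88 (-2.76 to -1.08), Ly6c2 at -1.70, and Dusp2, a phosphatase gene of early responses, at -1.30. In cluster 5, Dusp2 and Itgam both stood at -1.89.

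Mitosis genes differed less between tissues within clusters than over all cells, and replication genes did so in every compared cluster but cluster 7. The mitosis list had medians of 0.55, 0.16, -0.19, 0.62, 0.43, 1.04 and -0.04 in the same order of clusters, with 7 to 55 members compared. The replication list had medians of -0.12, -0.07, 0.05, 0.24, 0.52, 1.25 and 0.36, and 15 of 25 members at least 2-fold higher in cluster 7. The histone genes, with 3 to 18 compared, had medians of 0.05, -0.21, -0.77, 0.37, 0.40, 0.71 and 0.28. In cluster 6, Mki67 still stood at 1.64 (1.28 to 2.02), and Slamf7 and Cd244, receptors of NK activation, at -1.38 and -1.44. In cluster 10, none of 55 mitosis genes passed 2-fold, Slamf7 stood at -1.67 and Ncr1 at -0.66, and the highest genes in the ranking were Gpx1 (1.89), Lgals3 (1.54) and Psap (1.42), which myeloid cells also express. Myeloid genes outside the ranking were far higher there, such as Lyz2 (8.33, 6.83 to 9.04). Of the 26 marrow cells with myeloid markers 19 lay in cluster 10, against 0 of 17 in spleen.

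**Figure D3:**
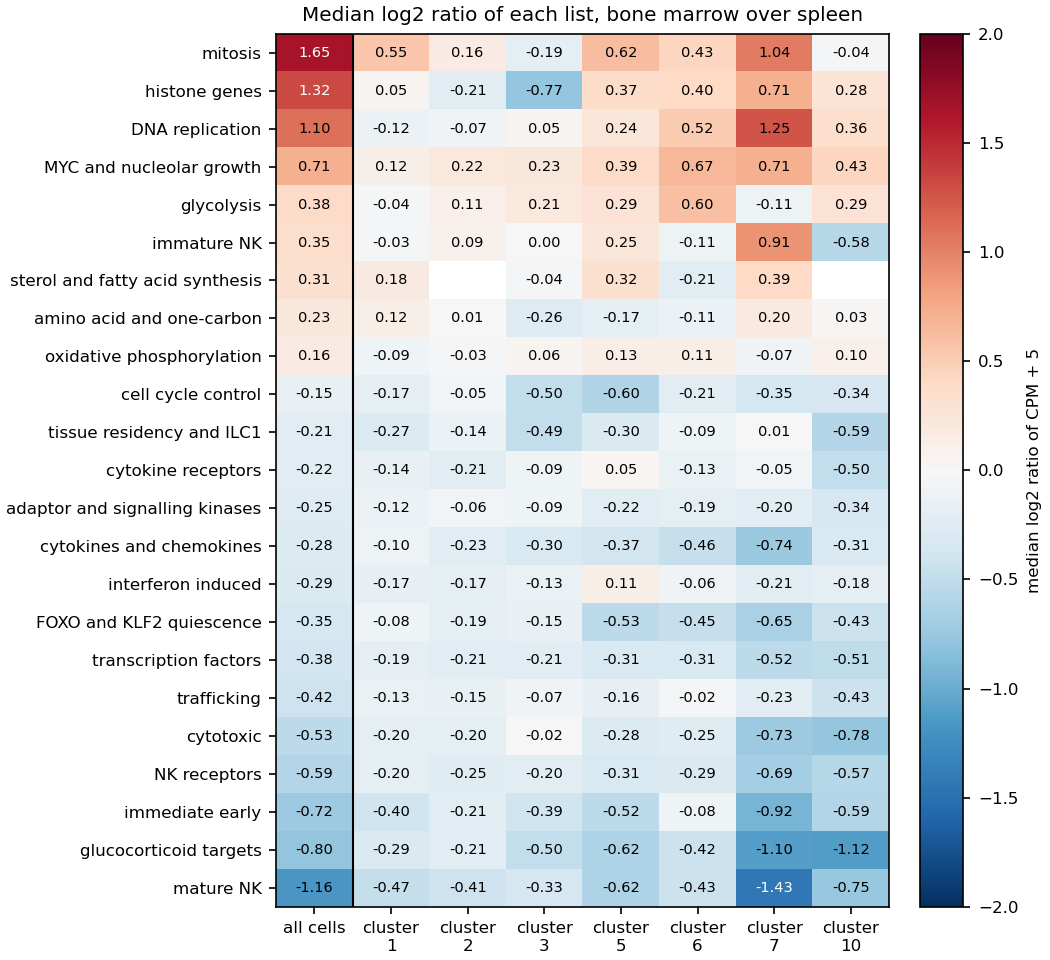
Median log2 ratio of CPM + 5, bone marrow over spleen, of each gene list over all cells (left column) and within each of the 7 clusters compared; an empty cell has no member at the level required. The mature NK row is negative in every column, from -0.33 to -1.43 within clusters, while the mitosis row falls from 1.65 over all cells to between -0.19 and 1.04 within clusters.

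Growth genes were modestly higher, and the medians of the metabolism lists were above 0 by less. All 34 genes of MYC-driven and nucleolar growth compared were higher in marrow, beside 3086 of 7128 of all genes. Of the 34, 4 (11.8%) were at least 2-fold higher, beside 4.14% of all genes, and the median was 0.71. Srm, spermidine synthase, stood at 60.5 and 17.4 CPM (1.55, 1.31 to 1.78), Nop58, a nucleolar protein gene, at 139 and 64.0 CPM (1.06), and Myc itself at 43.7 and 21.2 CPM (0.89, 0.65 to 1.13). The median was above 0 in each of the 7 clusters compared, from 0.12 to 0.71, and at 0.41 without clusters 6 and 10. Of 15 glycolysis genes 11 were higher, with a median of 0.38. At least 2-fold higher was 1, Hk2 (1.08), which is 6.67% of the list beside 4.14% of all genes. Gapdh stood at 824 and 457 CPM (0.84). Of 60 nuclear genes of oxidative phosphorylation 52 were higher and none at least 2-fold, with a median of 0.16. Medians of these lists without clusters 6 and 10 were 0.03 and 0.02. Of 16 genes of amino acid and one-carbon metabolism 10 were higher, 3 of them at least 2-fold, and 6 lower, with a median of 0.23. The list summed to 1242 CPM in marrow and 1234 CPM in spleen. Phgdh, which opens serine synthesis, stood at 130 and 40.5 CPM (1.57, 1.40 to 1.74), and Psat1, the next enzyme, at 42.9 and 15.6 CPM (1.22), while Ddit3, the gene of the stress factor CHOP, stood at -0.71. Of the 13 sterol and fatty acid genes none passed 2-fold, with a median of 0.31.

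Genes of rest and early response were lower. Of 12 targets of glucocorticoid hormone, 4 were at least 2-fold lower and none at least 2-fold higher, with a median of -0.80. Tsc22d3, which encodes GILZ, stood at 52.5 and 99.8 CPM (-0.87, -1.05 to -0.68), and Ddit4, an inhibitor of mTORC1, at 18.7 and 44.3 CPM (-1.06). Of 22 genes of quiescence under FOXO and KLF2, 4 were at least 2-fold lower and 1, Il7r, was above 0 (0.47). Cell cycle control genes went both ways, 3 of 23 at least 2-fold higher and 3 at least 2-fold lower. The antiproliferative genes Btg1 and Btg2 stood at log2 ratios of -1.09 and -1.15, and Cdkn1b, which encodes the inhibitor p27, at -0.86, while the G1 kinase gene Cdk6 stood at 1.06 and the E2F family gene E2f8 at 1.39. Of 30 immediate early genes 10 were at least 2-fold lower and none at least 2-fold higher, with a median of -0.72. Dusp2 stood at 182 and 602 CPM (-1.70), Junb at 444 and 980 CPM (-1.13) and Nr4a1 at 14.4 and 38.5 CPM (-1.17), while Fosb stood at 181 and 131 CPM (0.45). Such genes respond to tissue handling, which differed between the tissues, and its part was not tested. Of 34 interferon-induced genes, with a median of -0.29, none was at least 2-fold lower. At least 2-fold higher were 3 (8.82%, beside 4.14% of all genes). The 3 were Ifitm2, Ifitm3 and Ifi27l2a, whose log2 ratios without cluster 10 were 0.09, -0.54 and 0.01. Isg15 stood at 35.5 and 74.0 CPM (-0.96). Of 13 genes of tissue residency none was at least 2-fold higher and Rgs1 was at least 2-fold lower, with a median of -0.21. None of 28 adaptor and kinase genes of receptor signalling passed 2-fold, with a median of -0.25.

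**Figure D4:**
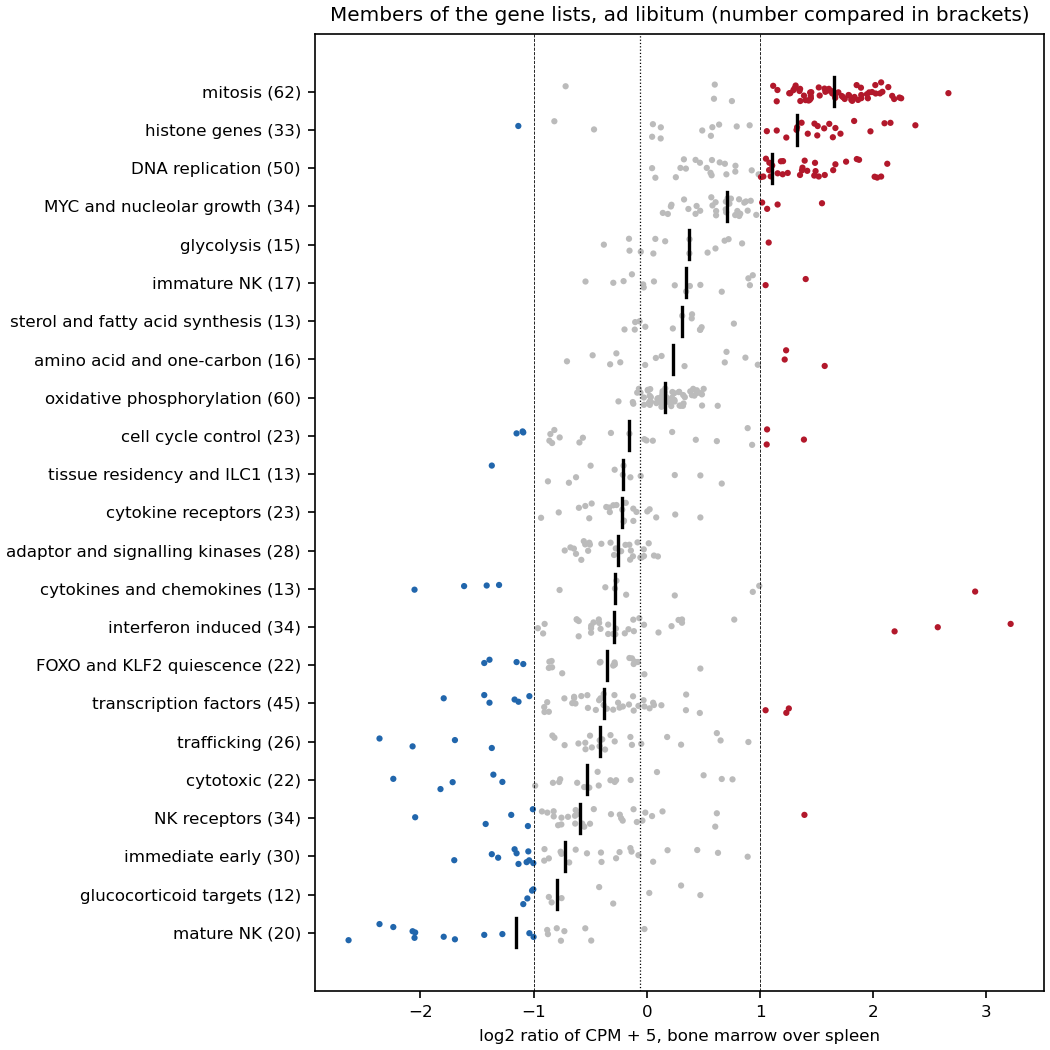
Log2 ratio of CPM + 5, bone marrow over spleen, of each compared member of the gene lists (points; red at least 2-fold higher, blue at least 2-fold lower, grey under 2-fold), with the list median (bar) and, dotted, the median of all genes compared (-0.06). The mature NK list has its median at -1.16 and no member above 0, and nearly all mitosis genes lie beyond 2-fold on the other side.

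The comparison was repeated in mice on the fasting diet, whose populations share no cells with the ad libitum ones. Fasted marrow had 136 cells and fasted spleen 1391, and refed marrow and spleen had 337 and 1476. In fasted mice 132 of 7086 genes were at least 2-fold higher in marrow (1.86%) and 102 lower (1.44%), and in refed mice 192 of 6998 (2.74%) and 69 (0.986%). Of the 295 genes higher under ad libitum feeding, 120 were also at least 2-fold higher in fasted and 189 in refed mice, and 101 in both. Of the 85 lower genes, 44 and 50 were also at least 2-fold lower, and 36 in both. In any size, 271 and 287 of the 295 were higher again, and 84 and 85 of the 85 lower again. The median log2 ratios of all genes compared were -0.084 in fasted and -0.082 in refed mice. All 20 lowest ranked genes and 17 of the 20 highest were past 2-fold in the same direction in both. The exceptions among the highest were Fabp5 (-0.35 in fasted), Tk1 (0.80 in fasted) and Ifitm2 (0.92 in refed). The mature NK list had medians of -1.33 in fasted and -1.23 in refed mice, and the mitosis list 1.37 and 1.69. The replication list had 0.20 in fasted and 0.90 in refed mice, against 1.10 under ad libitum feeding, and the histone genes 0.23 and 1.01 against 1.32. Growth genes had medians of 0.30 and 0.55 and oxidative phosphorylation -0.10 and 0.16. Differences between feeding states were not tested.

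**Figure D5:**
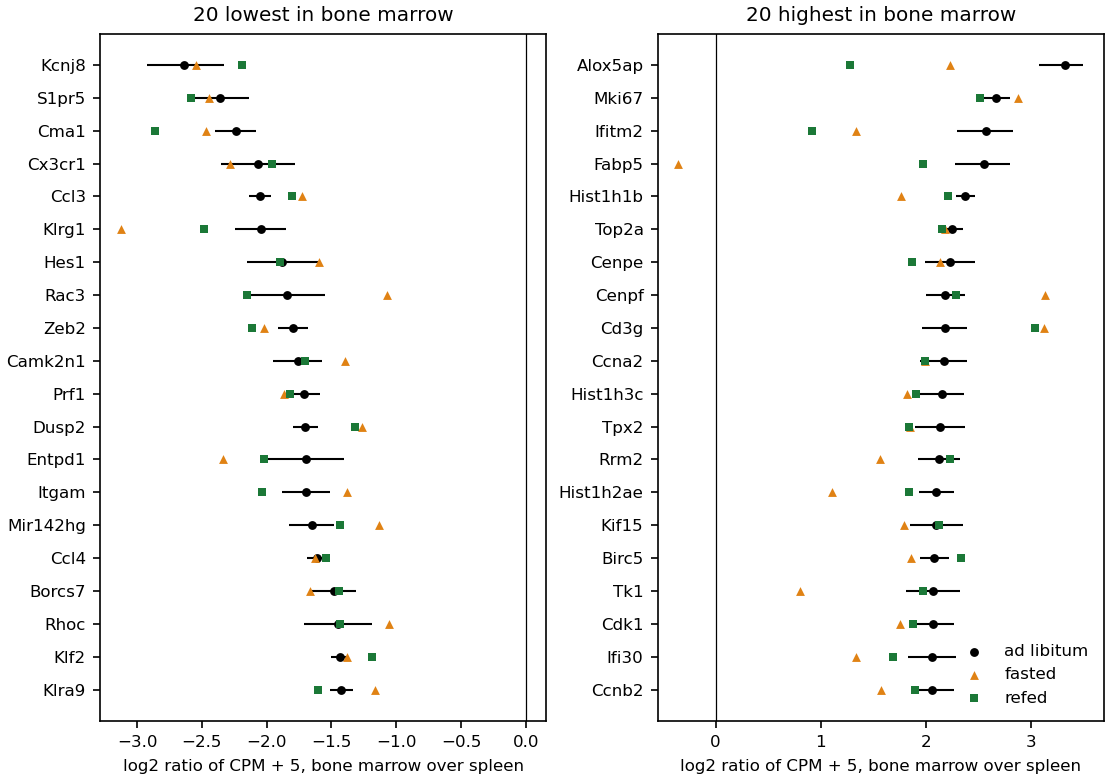
Log2 ratio of CPM + 5, bone marrow over spleen, of the 20 lowest (left) and 20 highest (right) ranked genes under ad libitum feeding (circles, with the 95% interval of counting error as a line), and in fasted (triangles) and refed mice (squares). All markers of the 20 lowest genes lie below -1, and on the right Fabp5 is the single gene with a marker below 0, at -0.35 in fasted mice.

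With the naive spleen in place of the ad libitum spleen, against the same marrow cells, 274 of the 295 higher and 59 of the 85 lower genes were past 2-fold in the same direction. These comparisons share the marrow population. S1pr5 had a log2 ratio of -2.45 and Mki67 of 2.67, and Cx3cr1 of -1.35 against -2.07 with the ad libitum spleen.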

How the data were processed

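NK cells of 10 hashtagged populations were sequenced in 1 lane of a 10x Chromium. The deposited matrix holds raw UMI counts per cell and gene, which the authors made with seqc, per the labels' protocol. The genome build was mm10, per the submitters' processing notes. Each cell also has a deposited hashtag call and cluster number. Their methods: not given in the sources used here. Cells called doublets (5606) or not called (33) were left out, and no doublet caller was run. Columns of 11 repeated symbols among 16800 were summed. Loci come from GENCODE M21, which held 16278 of the 16789 symbols.

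Counts were summed per population. The interval is the exact binomial (Clopper-Pearson) interval of a gene's share of UMIs given both totals, carried to the log2 ratio of CPM + 5. A count of 3 UMIs is 0.567 CPM in marrow and 0.339 CPM in spleen. Called means 2-fold, a rule of size. The 22 gene lists and the histone genes, the comparison and its members were chosen with earlier results of these data known. Named were the 20 highest and 20 lowest genes at a mean of at least 20 CPM whose highest cell held under 10% of the gene's UMIs, up to 6 members per list, 5 genes each way per cluster at 100 CPM or more, and fixed genes of NK biology, of which not all are reported here. The ranking left out unnamed models and genes of T cell receptors, immunoglobulins, haemoglobins, ribosomal proteins and mitochondria. Lyz2, S100a9, Trac, Trbc1 and other marker genes were named after their values were seen, to show where myeloid and T cell UMIs lay. Alternatives were TMM factors, totals without mitochondrial and ribosomal protein genes, pseudocounts of 1 and 20, mean levels of 1 and 50 CPM, a minimum of 1000 UMIs, leaving out cells with markers of other types, the 10% of cells with most UMIs or each gene's highest cell, the mean over cells, thinned cells and equal cluster weights. Added after the data were seen were leaving out cells with myeloid or T cell markers, cluster 10 or clusters 6 and 10, and the naive spleen as reference. The interval was tested on simulated counts with counting error alone and no variation between cells. It was thus not tested for genes whose UMIs lie in few cells. Software was R 4.3.3 with edgeR 4.0.16 (TMM only) and Python 3.11.15 with scipy 1.17.1, matplotlib 3.10.9, pandas 2.3.3 and numpy 2.4.6.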

Additional observations from a re-analysis of the deposited data

Results flagged for a closer look

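Cd69, an activation and retention marker that opposes S1P receptor egress, had tissue differences of opposite sign in the feeding states. Under ad libitum feeding it stood at 104 CPM in marrow and 116 CPM in spleen, a log2 ratio of -0.14. In fasted mice it stood at 151 CPM in marrow and 101 CPM in spleen, a log2 ratio of 0.55, and in refed mice the ratio was -0.05. The ad libitum sign turned under 6 settings. The log2 ratio was 0.39 in thinned cells, 0.34 with the mean of each cell's CPM, 0.28 without the cells with most UMIs, 0.24 without cluster 10, 0.05 without clusters 6 and 10 and 0.13 with equal cluster weights, all of the sign seen in fasted mice. The intervals of counting error left out 0 in the ad libitum and the fasted comparison, but each population was 1 sample, and the difference between the feeding states was not tested.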

How the results depend on the processing

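Counts of genes at least 2-fold higher and lower in marrow were 295 and 85, and moved by more than 1.5 times under several settings. The higher count was 125 with a pseudocount of 20, 86 at a mean of at least 50 CPM, 189 with the mean of each cell's CPM, 30 with equal cluster weights, 62 without cluster 10 and 35 without clusters 6 and 10. In the same order the lower count was 41, 46, 47, 18, 46 and 50, and it was 133 with a pseudocount of 1. The mature NK median, -1.16, was -1.04 with totals without mitochondrial and ribosomal protein genes, -1.08 without cells with markers of other types, -1.08 without the cells with most UMIs, -1.28 without cells with myeloid or T cell markers, -0.88 against naive spleen and -0.56 with equal cluster weights. The replication median, 1.10, was 1.35 and 0.80 with pseudocounts of 1 and 20, 0.74 with the mean over cells, 0.85 in thinned cells, 0.39 with equal cluster weights, 0.45 without cluster 10 and 0.28 without clusters 6 and 10. The mitosis median, 1.65, was 2.01 and 1.07 with pseudocounts of 1 and 20, 1.34 with the mean over cells, 0.39 with equal cluster weights, 0.86 without cluster 10 and 0.43 without clusters 6 and 10. Some values turned sign. The immature NK median was -0.030 with equal cluster weights, and at a mean of at least 50 CPM, where fewer genes are compared, the amino acid and sterol medians were -0.23 and -0.060. Without clusters 6 and 10 the histone median was -0.030, Hist1h2ap -0.094 and Ifitm2 -0.062, Alox5ap was -0.026 without cluster 10, and S100a9 was -0.10 without cells with myeloid or T cell markers. Genes under 2-fold that turned included Cd69, Tcf7 and Il7r. Cd69 turned positive in thinned cells and under 5 more settings, and Tcf7 was -0.12 against naive spleen and -0.20 with equal cluster weights. Il7r was -0.058 without cells with markers of other types and -0.30 with equal cluster weights. Beyond the cells or genes left out, the cause was not tested. Totals without ribosomal protein and mitochondrial genes moved the median of all genes from -0.06 to 0.05, and gave 419 genes higher and 69 lower. No paired analysis was possible because each population was 1 sample.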
